A study of Mus musculus with 9 samples.

Results

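The 9 genes described here, Mbp, Mobp, Mal, Cldn11, Mag, Cnp, Mog, Opalin and Ermn, encode structural proteins of central nervous system myelin. They were taken by symbol from a table of raw read counts for 49315 gene IDs, and all 9 passed the filter on low counts that left 18492 genes for testing. RNA-seq was performed on polyadenylated RNA of whole brain from 5 young and 4 old wild-type male C57BL/6J mice, aged 3 and 33 months, without any treatment. The comparison of old with young brain addressed which transcripts change with age, beside measurements of proteins and protein modifications that are not analysed here. Replicates were separate mice, numbered 1 to 5 in the young group and 1, 3, 4 and 5 in the old group.

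Myelin is the membrane that oligodendrocytes wrap around axons in layers, and it speeds the conduction of nerve impulses. Myelin basic protein (Mbp) binds the cytoplasmic faces of the membrane together in compact myelin, and myelin-associated oligodendrocyte basic protein (Mobp) is a further small basic protein of the compact layers. Mal is a membrane protein of lipid-rich domains, and claudin 11 (Cldn11) forms the tight junctions between myelin layers. Myelin-associated glycoprotein (Mag) faces the axon, 2',3'-cyclic nucleotide 3' phosphodiesterase (Cnp) lies in the non-compact cytoplasmic channels, and myelin oligodendrocyte glycoprotein (Mog) stands on the outermost surface. Opalin is an oligodendrocyte transmembrane glycoprotein, and ermin (Ermn) is a cytoskeletal protein of mature oligodendrocytes. In whole tissue, fewer oligodendrocytes and less RNA per oligodendrocyte cannot be told apart.

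The genes lie apart in the genome. In GRCm38 with GENCODE M21 annotation, Mobp spans chr9:120149707-120181484, Cldn11 chr3:31149920-31164324 and Cnp chr11:100574904-100591729, all on the plus strand. On the minus strand, Mag spans chr7:30899176-30914873, Mog chr17:37010743-37023398, Opalin chr19:41061710-41077113, Mal chr2:127633226-127656695 and Ermn chr2:58045113-58052864. Exons of Cnp overlap those of Dnajc7 on the opposite strand over 154 bases, and exons of Ermn overlap those of Galnt5 on the opposite strand over 237 bases. Exons of Mobp overlap those of Gm38642 on the same strand over 79 bases, so reads from these stretches could be uncertain.

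Upstream sequence from RefSeq (GRCm38.p6) was available for 8 of the 9 genes, not for Mbp. It is shown for 4 genes that were picked by their age result. Mobp rose most, Opalin fell most, Mog fell and Cnp was not called changed. Each line reads 5′ to 3′ on the strand of the gene and ends at the base before the annotated gene. Capitals mark letters that match ACAAAG, a core bound by SOX factors such as Sox10, or CTGGCAC or CTGGTAC, letters bound by the myelin regulatory factor Myrf, on either strand, so that CTTTGT and GTACCAG are matches on the opposite strand. The windows are chr9:120149492-120149706 (plus strand) for Mobp, chr19:41077114-41077363 (minus) for Opalin, chr17:37023399-37023648 (minus) for Mog and chr11:100574689-100574903 (plus) for Cnp.
Mobp: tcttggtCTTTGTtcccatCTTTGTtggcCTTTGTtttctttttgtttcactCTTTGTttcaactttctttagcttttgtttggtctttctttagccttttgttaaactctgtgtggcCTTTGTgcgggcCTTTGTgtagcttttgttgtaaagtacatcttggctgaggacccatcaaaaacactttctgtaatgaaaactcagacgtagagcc
Opalin: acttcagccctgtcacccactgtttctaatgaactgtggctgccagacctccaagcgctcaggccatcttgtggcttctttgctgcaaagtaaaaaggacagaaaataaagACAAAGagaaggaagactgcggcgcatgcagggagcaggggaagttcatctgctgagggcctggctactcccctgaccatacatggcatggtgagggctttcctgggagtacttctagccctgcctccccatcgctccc
Mog: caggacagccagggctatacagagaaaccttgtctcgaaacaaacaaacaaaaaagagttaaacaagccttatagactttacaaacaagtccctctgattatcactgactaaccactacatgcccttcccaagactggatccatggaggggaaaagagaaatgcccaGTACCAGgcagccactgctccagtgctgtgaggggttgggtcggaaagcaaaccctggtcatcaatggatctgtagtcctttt
Cnp: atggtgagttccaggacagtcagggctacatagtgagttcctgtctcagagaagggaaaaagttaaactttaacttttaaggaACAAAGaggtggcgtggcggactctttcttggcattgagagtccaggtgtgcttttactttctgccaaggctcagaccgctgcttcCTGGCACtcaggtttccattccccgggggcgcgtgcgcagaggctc

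The promoters differed in these letters. The search covered 250 bases before each RefSeq start, and the lines of Mobp and Cnp show the 215 of these that precede the annotated gene. The Mobp promoter held 6 matches to the SOX letters and was the only 1 of 32851 promoters with 6 or more (0.003%), while at least 1 match was present in 16.5% of all promoters. The Opalin promoter held 1 SOX match, Cnp held 1 SOX and 1 Myrf match, and Mog held 1 Myrf match and no SOX match. Mag had 3 promoter entries, with at most 1 SOX and 1 Myrf match in an entry, not necessarily in the same one. The Myrf letters were present in 5.93% of all promoters. Neither set was found in the windows of Cldn11, Mal and Ermn. A match describes the letters only, binding was not measured, and a relation of these letters to the age differences was not tested.

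Old brain held more Mobp, Mbp, Ermn and Cldn11 RNA, less Opalin and Mog RNA, and Mal, Cnp and Mag were not called. Thus 4 of the 9 genes were higher in old brain, where 6.2% of all tested genes were called higher, and 2 were lower, where 4.83% of all tested genes were called lower (adjusted p under 0.05, quasi-likelihood test of edgeR, Benjamini-Hochberg over the 18492 genes). None reached an absolute log2 fold change of 0.58, whereas 2.68% of all genes were called and passed it. The 9 values ranged from -0.56 for Opalin to 0.33 for Mobp, with a median of 0.083, beside a median of -9e-05 over all genes. In levels scaled between libraries by TMM (factors 0.981 to 1.02), old and young mice did not overlap for 3 genes, Mobp, Mbp and Ermn, all higher. This was the case for 6.5% of all genes, and no member was lower without overlap (6.08% of all genes). On unscaled library totals Mbp and Ermn overlapped, as given below.

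**Figure D1:**
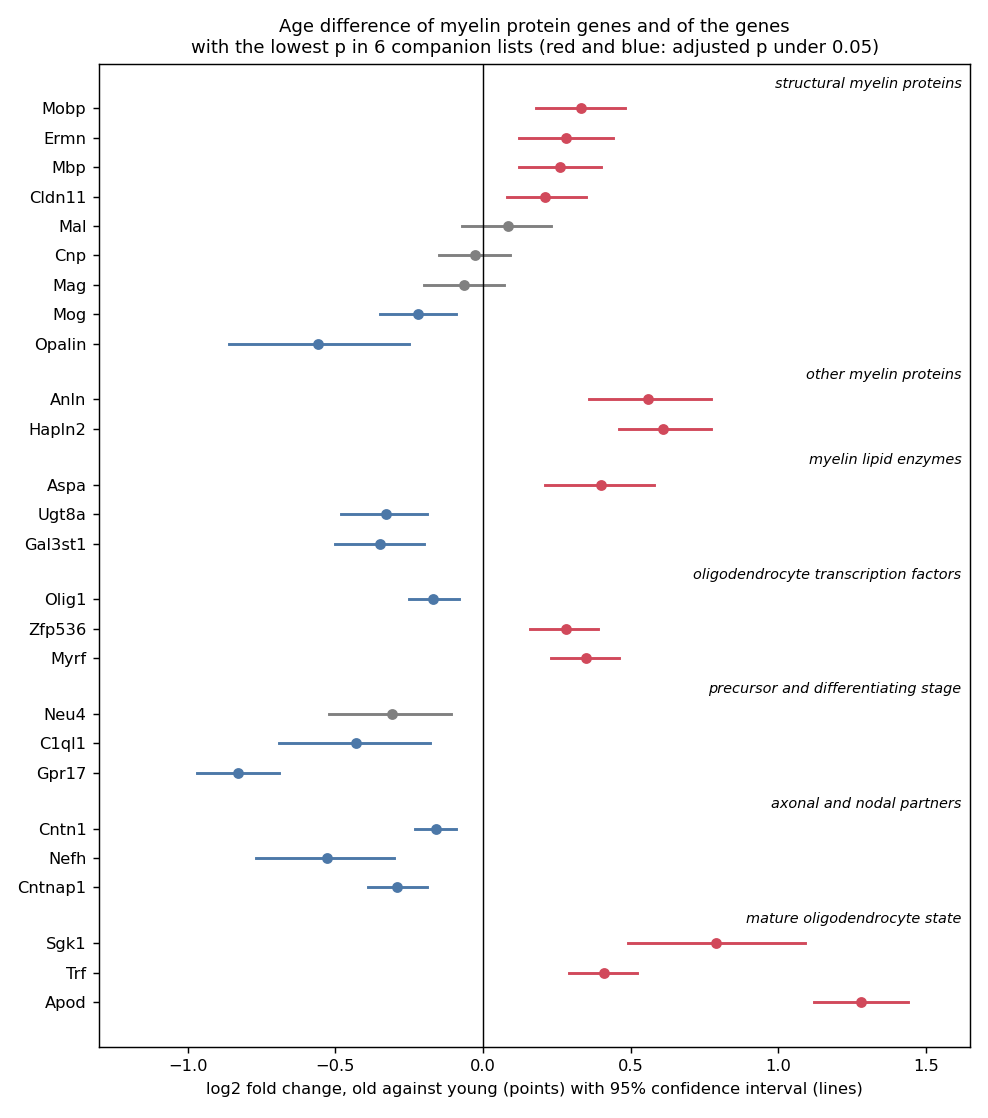
Log2 fold change of old against young brain for the 9 myelin protein genes and for the genes of lowest p in 6 companion lists described further on, with points for the edgeR estimate, lines for its 95% confidence interval, red for genes called higher, blue for lower and grey for not called. Mobp, Ermn, Mbp and Cldn11 lie above 0, Mal, Cnp and Mag have intervals that include 0, and Mog and Opalin lie below 0.

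Among the genes of compact myelin, the basic protein transcripts rose. Mobp was measured at 1018, 914, 1088, 988 and 1099 CPM (counts scaled to a common library total) in young mice 1 to 5, and at 1296, 1198, 1486 and 1149 CPM in old mice 1, 3, 4 and 5. Every old mouse lay above every young mouse, and the mean rose by 25.6% from 1021 ± 75.9 CPM (SD, n = 5) to 1282 ± 149 CPM (SD, n = 4). The log2 fold change was 0.33 (SE 0.071, 95% confidence interval 0.18 to 0.48, edgeR adjusted p = 0.0094). Mbp stood at 2924, 2840.0, 3183, 2742 and 3147 CPM in the young mice and at 3198, 3634, 4014 and 3368 CPM in the old mice. The groups did not overlap, but the lowest old mouse (replicate 1) was only just above the highest young mouse (replicate 3). On unscaled library totals old replicate 1 (60305 of 18742861 counts) lay below young replicate 3 (46401 of 14229259). Mbp (chr18:82475146-82585637, plus strand, 16 annotated transcripts) had a log2 fold change of 0.26 (SE 0.063, interval 0.12 to 0.40, edgeR adjusted p = 0.018), a rise of 19.8% in mean CPM. Both genes remained called when any single mouse was left out, with adjusted p up to 0.023 for Mobp and 0.048 for Mbp.

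The Mal transcript, by contrast, was not called. Its levels were 206, 189.9, 229, 210.2 and 230.4 CPM in young mice and 218, 215, 262 and 208 CPM in old mice. The groups overlapped, with only old replicate 4 above all young mice, and the log2 fold change of 0.08 had an interval from -0.07 to 0.23 (edgeR adjusted p = 0.49).

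Cldn11, the tight junction component, was at 144, 158, 171, 163 and 174 CPM in young mice and at 184, 186, 211 and 168 CPM in old mice. Old replicate 5 lay within the young range and the other old mice lay above it. The log2 fold change was 0.21 (SE 0.064, interval 0.08 to 0.35, edgeR adjusted p = 0.047), which is close to the threshold. The call was lost in 7 of the 9 fits that left out 1 mouse, with an adjusted p of up to 0.13, reached without old replicate 4.

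Ermn, the cytoskeletal member, was at 82.6, 66.8, 86.5, 80.5 and 83.6 CPM in young mice and at 86.7, 101, 109 and 91.2 CPM in old mice. All old mice lay above all young mice, again with old replicate 1 next to the highest young mouse. On unscaled library totals old replicate 1 (1636 of 18742861 counts) lay below young replicate 3 (1261 of 14229259). Ermn rose by 0.28 on the log2 scale (SE 0.075, interval 0.12 to 0.44, edgeR adjusted p = 0.030). Without old replicate 3 the edgeR adjusted p was 0.077 (log2 fold change 0.26), and without old replicate 4 it was 0.084 (0.22).

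**Figure D2:**
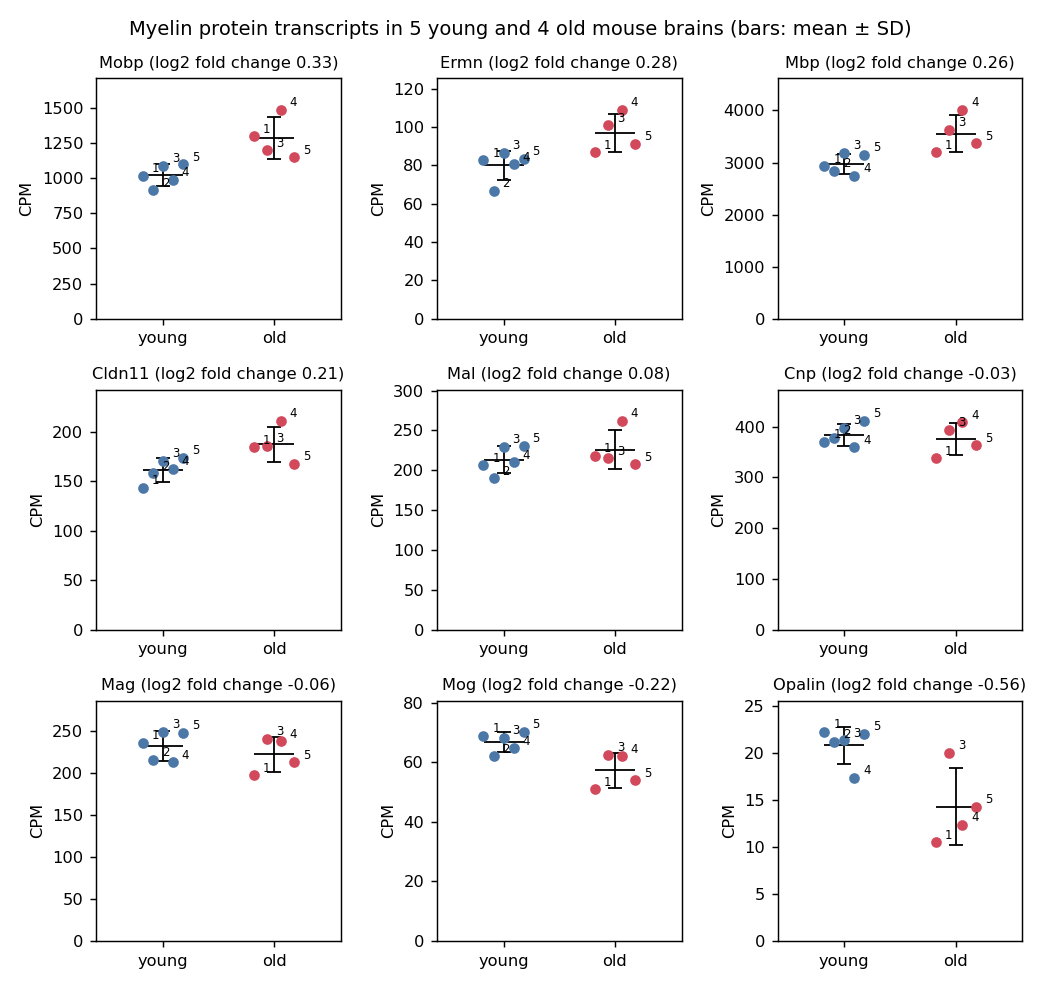
Level of each of the 9 myelin protein genes in CPM, with 1 point per mouse in 5 young and 4 old brains, numbered by replicate, and bars for the mean ± SD of each group. The old mice sit above all young mice for Mobp, Mbp and Ermn, overlap them for the other 6 genes, and spread most for Opalin, from 10.5 to 20.1 CPM.

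The glycoproteins of the outer surface and the cell membrane fell. Opalin was at 22.3, 21.2, 21.4, 17.4 and 22.1 CPM in young mice and at 10.5, 20.1, 12.4 and 14.3 CPM in old mice. Old replicates 1, 4 and 5 lay below all young mice, whereas old replicate 3 lay inside the young range. The mean fell from 20.9 ± 1.99 CPM (SD, n = 5) to 14.3 ± 4.13 CPM (SD, n = 4), and the log2 fold change of -0.56 had an SE of 0.14 and an interval from -0.86 to -0.25 (edgeR adjusted p = 0.022). Opalin was the least abundant member, with 198 to 427 counts per library against 46401 to 73490 for Mbp, and its coefficient of variation among old mice was 28.9%, against 8.49% to 11.6% for the other 8 genes. Mog was at 68.8, 62.0, 68.1, 64.7 and 70.1 CPM in young mice and at 50.9, 62.4, 62.0 and 53.9 CPM in old mice. Old replicates 1 and 5 lay below the young range, while old replicates 3 and 4 were level with the lowest young mouse. For Mog the log2 fold change was -0.22 (SE 0.062, interval -0.35 to -0.09, edgeR adjusted p = 0.035).

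The lower calls were lost in some of the fits that left out 1 mouse. Without old replicate 1, Opalin had a log2 fold change of -0.43 (edgeR adjusted p = 0.061) and Mog one of -0.16 (adjusted p = 0.10), so that neither was called. The Mog call was lost in 5 and the Opalin call in 4 of the 9 fits that left out 1 mouse, and both were lost without young replicate 1, young replicate 5 or old replicate 1. Without young replicate 1 the log2 fold change was still -0.53 for Opalin and -0.21 for Mog. Without young replicate 5 it was -0.53 and -0.20. Lower calls over all genes also went from 893 to 618, 585 and 598 in these fits, in that order.

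The members facing the axon and in the non-compact channels did not pass the test. Mag was at 237, 216, 249, 213 and 248 CPM in young mice and at 197, 241, 238 and 213 CPM in old mice. Cnp was at 369.7, 378, 398, 359 and 411 CPM in young mice and at 337, 394, 409 and 363 CPM in old mice. In both genes old replicate 1 was the lowest of all 9 mice and the remaining old mice lay within the young range or at its edge. The log2 fold change was -0.06 for Mag (interval -0.20 to 0.07, edgeR adjusted p = 0.58) and -0.03 for Cnp (interval -0.15 to 0.09, adjusted p = 0.80), so changes of the size seen for Mobp lay outside both intervals.

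Levels of regional marker genes varied among the mice and are given beside these results. Of 6 brainstem and cord markers, among them Slc6a5, Glra1, Hoxb3, Hoxb5 and Hoxa5, 0 passed the test, all had a fitted fold change below 0, and their summed level was 81.1 to 135.0 CPM in young and 15.9 to 90.8 CPM in old mice. The lowest value was that of old replicate 1, in which Hoxb3 and Hoxb5 had 0 counts, which allows up to 3 counts each. The 4 olfactory bulb markers, 0 of which passed the test, summed to 14.9 to 59.1 CPM in young and 12.7 to 126.2 CPM in old mice, and Tbx21 had 0 counts in young replicate 1. With the mean level of the brainstem and cord markers as a covariate, a fit added after the data were seen, 3 members were higher and 0 lower. Over all genes this fit called 720 higher and 384 lower, against 1146 and 893 without the covariate. In that fit the log2 fold change was 0.37 for Mobp (edgeR adjusted p = 0.023), 0.37 for Mbp (0.0041) and 0.38 for Ermn (0.013), and was -0.44 for Opalin (0.17) and -0.13 for Mog (0.28). With the olfactory bulb markers as covariate 5 members were higher, Mal joining at a log2 fold change of 0.18 (adjusted p = 0.05 after rounding), and 1 was lower. Over all genes the olfactory bulb fit called 1013 higher and 687 lower. Regional composition itself was not measured, and its part in the change of these genes was not tested.

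**Figure D3:**
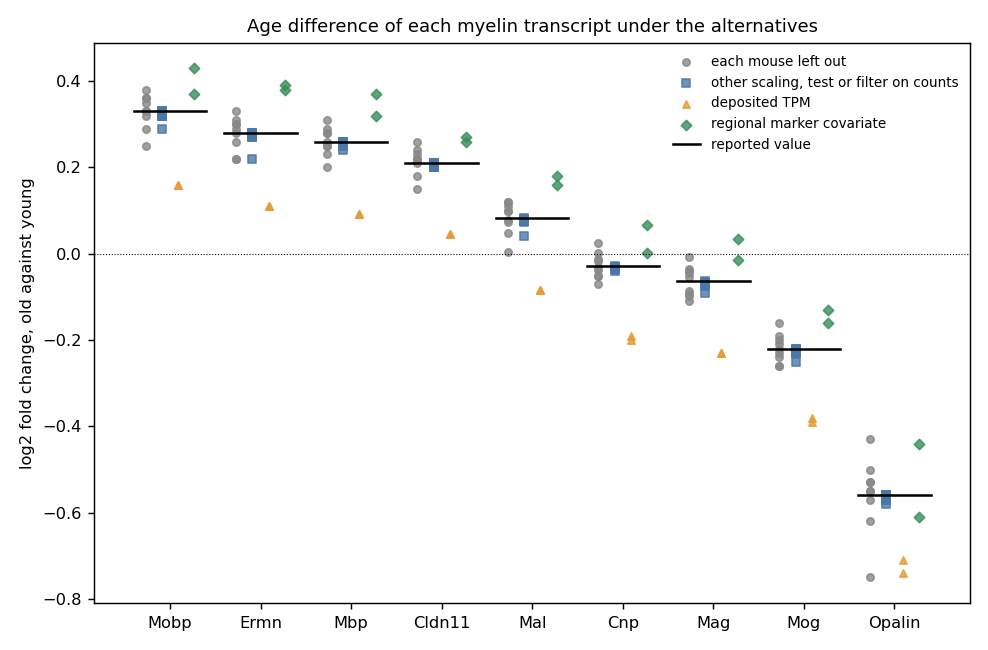
Log2 fold change of old against young brain (vertical axis) for each of the 9 genes, with a line for the reported value and symbols for fits without each mouse (circles), other scalings, tests, filters or the replicate block (squares), deposited TPM (triangles) and a regional marker covariate (diamonds). Mobp, Ermn, Mbp and Cldn11 stay above 0 and Opalin and Mog below 0 in all of them, while Cnp, Mag and Mal cross 0 in some.

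Levels of different genes were compared per length. On TPM rescaled after leaving out 8 genes that each took more than 1% of the TPM in a library, Mbp was the most abundant member at 1478 ± 104 (SD, n = 5) in young and 1764 ± 176 (SD, n = 4) in old brain. The same order followed in both ages, with Mobp next (624 ± 49.8 young, 780 ± 86.0 old), then Cnp, Cldn11, Mal, Mag and Mog, and with Ermn (92.1 ± 9.38 young, 111 ± 11.5 old) and Opalin (47.5 ± 4.71 young, 32.5 ± 9.71 old) last. Neighbours that overlapped were Cldn11 and Mal in both ages, and Cnp with Cldn11 and Mog with Ermn in old brain. In young brain Mog (151 to 172) and Ermn (76.2 to 101) were apart, whereas in old brain the lowest Mog level (124) met the highest Ermn level (124). The deposited TPM used a shorter length for Opalin (1838 bases) than its annotated exon bases (2946), and the longer length would lower its level further.

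As a share of TMM-scaled library totals, the 9 genes together took 0.507%, 0.485%, 0.549%, 0.484% and 0.549% in young mice and 0.558%, 0.605%, 0.680% and 0.563% in old mice. All old mice were above all young mice on this scale, but not on unscaled totals. There young replicate 3 (80084 of 14229259 counts) was not below old replicates 1 (105225 of 18742861) and 5 (96055 of 17068814). The sum of the 9 genes followed its most abundant members, since Mbp made up 56.7% to 58.6% of the member counts in young and 57.3% to 60.1% in old mice. The mean log2 CPM over the 9 genes, which weights them equally, was 7.76 ± 0.087 (SD, n = 5) in young and 7.78 ± 0.13 (SD, n = 4) in old mice. Within the member counts, the share of Mobp was 18.9% to 20.4% in young and 19.8% to 23.2% in old mice, while that of Mog went from a range of 1.24% to 1.36% to one of 0.911% to 1.03%.

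The ratio of 2 members within a library depends on neither depth nor scaling, and was used to ask whether the balance among myelin transcripts changed. Of the 36 pairs, 25 differed between the ages (exact permutation test over every split of the 9 mice, two-sided, adjusted p under 0.05 over the 36 pairs), and 19 pairs did not overlap. The smallest p that this design allows is 0.00794. The 36 ratios are built from the same 9 genes and are not independent. The share of differing or non-overlapping pairs among all genes was not computed, so these counts have no background beside them. The number of pairs that passed was 18 to 24 when old replicate 1, 3, 4 or 5 or young replicate 1, 2 or 4 was left out, and 0 without young replicate 3 or 5. With 4 young mice the smallest exact p is 0.0286, so after adjustment no pair can pass unless many pairs share that p. The count can therefore drop to 0 at once. The 11 pairs that did not pass included Mog with Opalin (difference 0.36 on the log2 scale, exact adjusted p = 0.11) and Cldn11 with Mal (exact adjusted p = 0.066). All 11 except Cldn11 with Mal joined genes with the same call, but the calls came from the same mice, so this is a description only.

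The ratio of Mbp to Cnp, a gene called higher and a gene not called, was steady within each age. There were 7.91, 7.52, 8.01, 7.64 and 7.66 Mbp counts per Cnp count in young mice and 9.48, 9.23, 9.82 and 9.28 in old mice. The old ratios were all higher, by 0.29 on the log2 scale, with SDs of 0.038 in young and 0.041 in old mice (exact permutation test, adjusted p = 0.018). Old replicate 1, in which both genes were low for an old mouse, had a ratio like those of the other old mice. Mobp to Mal behaved likewise, at 4.94, 4.82, 4.74, 4.70 and 4.77 in young and 5.94, 5.58, 5.67 and 5.54 in old mice (log2 difference 0.24, exact adjusted p = 0.018).

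The ratios of Mobp to the genes that fell spread more among old mice. Mobp to Mog was 14.8, 14.8, 15.97, 15.3 and 15.7 in young mice and 25.5, 19.2, 23.97 and 21.3 in old mice (log2 difference 0.55). Mobp to Opalin was 45.7, 43.1, 50.8, 56.8 and 49.8 in young mice and 123, 59.7, 119.9 and 80.4 in old mice (0.91). No old mouse fell within the young range in either ratio, although old replicate 3 was close to it for Opalin. The Mog to Mag ratio, between the outermost and the innermost surface protein, fell from 0.291, 0.287, 0.273, 0.304 and 0.283 to 0.258, 0.259, 0.261 and 0.253 (log2 difference -0.16, exact adjusted p = 0.026). The pairs Mbp with Mobp (log2 difference -0.07, exact adjusted p = 0.39), Mbp with Ermn (-0.02, 0.81) and Mag with Cnp (-0.04, 0.39) did not pass. All 25 differing pairs kept their direction whichever mouse was left out, and 21 of them were without overlap when old replicate 1 was left out.

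**Figure D4:**
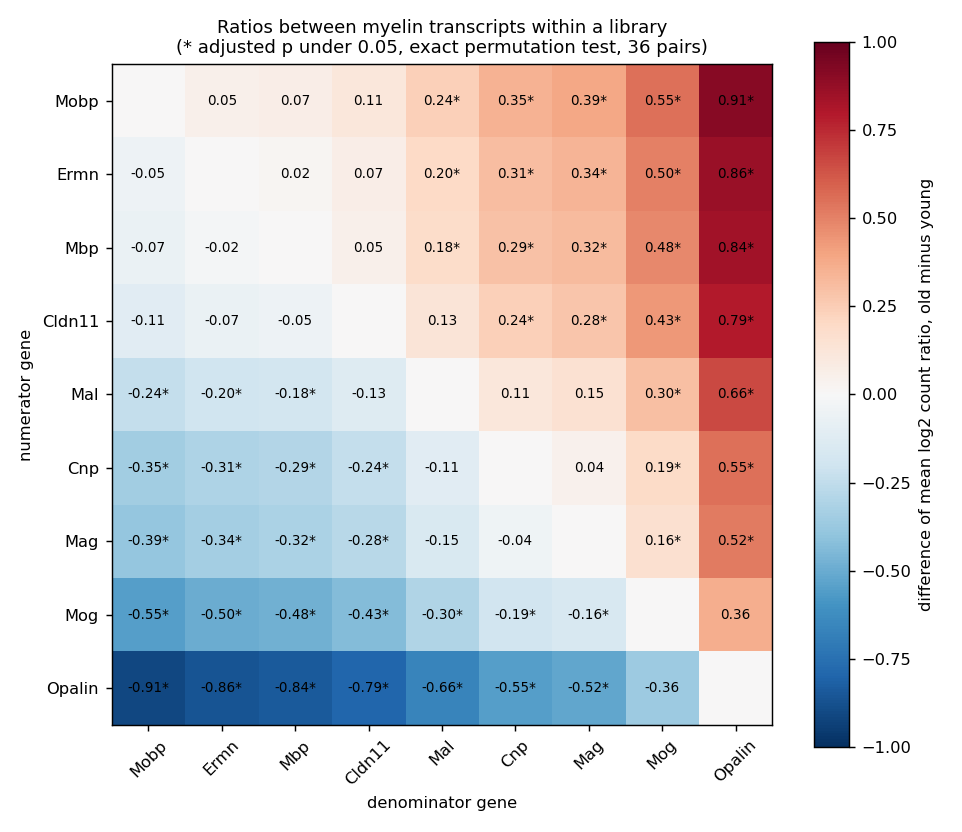
Difference between old and young brain in the mean log2 count ratio of each of the 36 pairs of myelin protein genes, row gene over column gene, with red for a higher and blue for a lower ratio in old brain and an asterisk for pairs past the exact permutation test. Each pair appears in both orders with opposite sign, and 25 pairs are marked, with differences up to 0.91 for Mobp over Opalin.

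Within an age, the genes also varied together from mouse to mouse. Deviations of log2 CPM from the age mean over the 9 mice had a median pairwise Pearson r of 0.66 over 36 pairs, of which 33 were above 0, from -0.30 for Mobp with Opalin to 0.96 for Mobp with Mal. The genes share libraries, so these values are descriptions only. Mag (r = 0.96, Spearman's rho 0.82), Mbp (0.94, 0.88), Mog (0.93, 0.87) and Cnp (0.91, 0.85) followed the mean of the other 8 most closely. Ermn (0.82, 0.83), Mal (0.69, 0.52), Mobp (0.56, 0.52) and Cldn11 (0.54, 0.58) followed it less, and Opalin least (0.23, 0.38). The mean deviation was lowest in old replicate 1 (-0.14) and highest in old replicate 4 (0.13), a spread across old mice as wide as the age differences of Mbp and Cldn11.

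**Figure D5:**
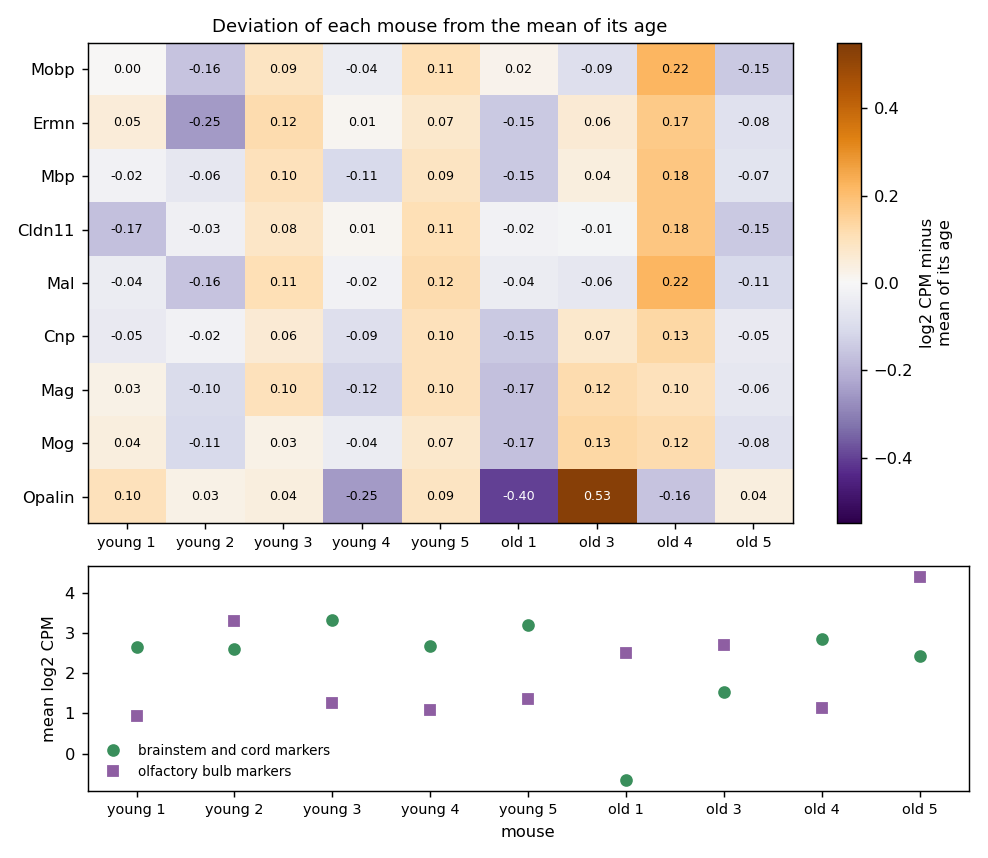
Top, deviation of log2 CPM from the mean of its age group for the 9 genes (rows) in the 9 mice (columns), and bottom, mean log2 CPM of the brainstem and cord markers (circles) and the olfactory bulb markers (squares) in the same mice. Old replicate 4 is high for all genes but Opalin, and old replicate 1, lowest in the brainstem and cord markers, lies below its age mean for all genes but Mobp.

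Of 11196 genes with a mean log2 CPM of at least 3, those most like the members' mean deviation over the 9 mice were Chic1 (Pearson r = 0.983), C2cd2 (0.980), Ttyh2 (0.966), Myrf (0.955), Slc17a6 (0.948) and Daam1 (0.947). Only Myrf and Slc17a6 of these were called between the ages, Myrf higher (log2 fold change 0.35, edgeR adjusted p = 0.0012) and Slc17a6, the vesicular glutamate transporter of brainstem and thalamic neurons, lower (-0.40, adjusted p = 0.003).

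Other myelin genes also moved in both directions. Of 22 further myelin protein genes, 5 were higher and 3 lower, with a median log2 fold change of 0.035. Beside this list and those that follow stand the shares over all tested genes, 6.2% called higher and 4.83% lower. Hapln2, a link protein of the nodal matrix, rose from a mean of 45.3 to 69.1 CPM (log2 fold change 0.61, SE 0.073, edgeR adjusted p = 0.00021), and Anln, a septin scaffold protein of myelin, rose from 53.9 to 79.5 CPM (0.56, SE 0.096, adjusted p = 0.0025).

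Among 8 enzymes of myelin lipids 2 were higher and 3 lower (median -0.0021). The enzymes that make galactocerebroside and sulfatide, Ugt8a (76.6 to 60.9 CPM, log2 fold change -0.33, edgeR adjusted p = 0.0067) and Gal3st1 (13.8 to 10.8 CPM, -0.35, adjusted p = 0.0064), fell. Aspa, which releases acetate from N-acetylaspartate, rose from 20.6 to 27.1 CPM (0.40, edgeR adjusted p = 0.0093). With the DESeq2 test and most other alternatives only 1 of the 8 enzymes was higher.

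Of 12 oligodendrocyte transcription factors 3 were higher and 2 lower (median 0.023). Myrf, which drives myelin gene expression, rose from 89.2 to 113 CPM, and Zfp536, a zinc finger factor of the lineage, rose from 41.1 to 49.7 CPM (log2 fold change 0.28, edgeR adjusted p = 0.0051). Olig1 fell from 136 to 121 CPM (-0.17, edgeR adjusted p = 0.015). With the brainstem and cord covariate 0 of these factors were lower, in a fit where lower calls over all genes went from 893 to 384.

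Genes of precursors and differentiating oligodendrocytes included 0 higher and 2 lower of 9 (median -0.11). Gpr17, a receptor of cells about to myelinate, fell from 38.7 to 21.8 CPM (log2 fold change -0.83, SE 0.066, edgeR adjusted p = 1.1e-05), and C1ql1 fell from 14.2 to 10.4 CPM (-0.43, adjusted p = 0.032). Neu4 was at 8.95 and 7.18 CPM and was not called (-0.31, edgeR adjusted p = 0.05 after rounding).

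Among 11 axonal and nodal partners, 0 were higher and 5 lower (median -0.16), and all 11 fold changes were below 0. Cntnap1, the axonal protein of paranodal junctions, fell from 319 to 261 CPM (log2 fold change -0.29, edgeR adjusted p = 0.0012), its partner Cntn1 from 432 to 387 CPM (-0.16, adjusted p = 0.0081), and the heavy neurofilament Nefh from 234 to 161 CPM (-0.53, adjusted p = 0.0076). With the brainstem and cord covariate 2 of the 11 were lower, in a fit where lower calls over all genes went from 893 to 384. A relation of these genes to the lower brainstem and cord marker level in old brain was not tested.

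Of 10 genes of the mature oligodendrocyte state 5 were higher and 0 lower (median 0.25). The lipid carrier Apod rose from 161 to 389.8 CPM (log2 fold change 1.28, SE 0.076, edgeR adjusted p = 1.9e-06), the iron carrier transferrin (Trf) from 95.4 to 126.4 CPM (0.41, adjusted p = 0.00045), and the kinase Sgk1 from 116 to 201 CPM (0.79, adjusted p = 0.0031). These genes are also expressed outside oligodendrocytes.

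Markers of other cells were read in the same libraries. The Schwann cell markers, which would mark peripheral nerve, included 1 at or near 0, with 0 to 1 counts of Pmp2 per library, and 0 of the 5 that were tested were higher and 1 lower. Of the neuron markers 0 of 8 were higher and 2 lower, and of the astrocyte markers 0 of 7 were called. Higher calls were made for 3 of 7 microglia, 4 of 6 endothelial and 3 of 3 blood markers, and lower calls for 1 of 4 ependyma and 1 of 5 cerebellum markers, while 0 of 5 choroid plexus markers were called. Over all tested genes 6.2% were called higher and 4.83% lower. In lists this short, 1 call or none cannot be told apart from these shares. The summed level of the microglia markers was 210.2 to 289 CPM in young and 279 to 336 CPM in old mice, and that of the blood markers 72.4 to 93.3 CPM and 108 to 335 CPM. The part of these cells in the change of the 9 genes was not tested.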

How the data were processed

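Polyadenylated RNA with spike-in controls was sequenced from 9 whole brains. The authors trimmed reads with Trimmomatic, aligned them to mm10/GRCm38 with STAR and counted uniquely mapped reads on exons with featureCounts, and the deposited values are raw integer counts for each gene, with totals of 14229259 to 21150439 per library. The deposited normalized counts are a signal for 17994 genes that the authors scaled by 1 size factor per library (DESeq2 per the labels). The deposited TPM values were scaled by the authors for length and depth, and were led by Gm23935 (8.68% to 39.5% of TPM per library). Each table held a further column of per-sample values (1 each) that matched no sample used here and was left out. Paper methods state that young mice were of 3 or 4 months, and the labels 3 months. Strand-specific counting of these libraries is not given in the sources used here.

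Gene IDs were matched to GENCODE M21 symbols (49056 of 49315, and 259 had none). Genes were filtered with filterByExpr (minimum count 10, minimum total 15), scaled by TMM (factors 0.981 to 1.02) and tested by quasi-likelihood in edgeR 4.0.16 (R 4.3.3), and p-values were adjusted over 18492 genes after Benjamini and Hochberg. The biological coefficient of variation was 6.71% and the median SE of a log2 fold change 0.0838. The fits were tested on simulated data. Pairs of members were compared by an exact permutation test. Alternatives used DESeq2 1.42.0, limma 3.58.1 on log2(TPM + 1), log2(TPM + 0.1) and log2 normalized counts, other scaling factors and filters, a replicate block, and fits without each mouse.

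The members and lists were chosen with earlier results of these data known. Named were all 9 members, the 3 genes of lowest p in each of 6 companion lists (1 is not reported here) and the 6 genes of highest likeness. Replicates were separate mice, and libraries of an age differed by more than sampling noise.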

Additional observations from a re-analysis of the deposited data

Results flagged for a closer look

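Of 54 sets of values looked at (1 gene or list in 1 age), 5 had a mouse far from the rest by Dixon's ratio (the gap to the nearest mouse divided by the range of the group). Chance flags about 1 in 20, or 2.7 of 54. Opalin in young mice had a ratio of 0.8, because young replicate 4 was at 17.4 CPM and the other young mice were at 21.2 to 22.3 CPM. Ermn in young mice had a ratio of 0.721, with young replicate 2 at 66.8 CPM and the others at 80.5 to 86.5 CPM. The mean log2 CPM of the myelin lipid enzymes in old mice had a ratio of 0.849, with old replicate 1 at 4.99 and the others at 5.11 to 5.13. The precursor and differentiating stage genes in old mice had a ratio of 0.876, with old replicate 1 at 3.82 and the others at 3.97 to 3.99. The olfactory bulb markers in young mice had a ratio of 0.822, with young replicate 2 at 3.30 and the others at 0.94 to 1.36.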

How the results depend on the processing

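Against 4 members higher and 2 lower, the counts were 4 and 2 with DESeq2 size factors, the DESeq2 test, no filter and a CPM minimum, and 3 and 2 with upper quartile factors and with the authors' normalized counts. On deposited TPM they were 0 and 1 with either pseudocount, where the median of all genes was shifted by -0.142 (pseudocount 1) or -0.162 (0.1), and on TPM rescaled without the 8 abundant genes they were 1 and 1. Deposited TPM called 307 genes higher and 287 lower in all, against 1146 and 893. Leaving out each mouse gave 2 to 4 members higher (2 without old replicate 3 or 4) and 0 to 2 lower (0 without young replicate 1 or 5 or old replicate 1, and 1 without young replicate 3 or old replicate 4 or 5). The number of differing pairs went from 25 to 0 without young replicate 3 or 5 and was 18 to 24 without any other mouse. The smallest exact p with 4 young mice is 0.0286, so after adjustment over 36 pairs none can pass unless many share that p. A count of 0 can therefore follow from a small change in a few pairs. Without young replicate 1, 2 or 4, under the same limit, 21 to 22 pairs passed. With the covariates added after seeing the data, 0 members were lower with the brainstem and cord markers and 1 with the olfactory bulb markers. Lower calls over all genes were 384 and 687 in these fits, against 893. The sign turned for genes that were not called: Mag was 0.035 with the brainstem and cord covariate, Cnp was -0.071 to 0.024 with a mouse left out (above 0 without young replicate 5 or old replicate 1), 0.066 with the brainstem and cord covariate and 0.001 with the olfactory bulb covariate, and Mal was -0.085 on deposited TPM with either pseudocount. Correlations of deviations were -0.118 to 0.17 for same-numbered mice and -0.218 to 0.164 for young and old mice of different number. These few values cannot exclude that the numbers pair the mice. With a replicate block 2 members were higher (Mobp and Ermn) and 2 lower. On deposited TPM (pseudocount 1) the lists moved too. Higher calls went from 5 to 0 for other myelin proteins, 5 to 2 for the mature oligodendrocyte state, 3 to 0 for transcription factors, 2 to 0 for lipid enzymes, 3 to 0 for microglia, 4 to 1 for endothelial and 0 to 3 for olfactory bulb markers. Lower calls went from 3 to 1 for other myelin proteins, 3 to 0 for lipid enzymes, 2 to 0 for transcription factors, 5 to 2 for axonal and nodal partners, 2 to 0 for neuron, 0 to 5 for brainstem and cord, 1 to 4 for cerebellum and 1 to 2 for ependyma markers. The cause of these moves was not tested.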
